A study of Arabidopsis thaliana with 4 samples.

Results

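WIND1 to WIND4 and the wound-responsive factors ERF115, ERF114, ERF109 and RAP2.6 (also called ERF108) are transcription factors of the AP2/ERF family of Arabidopsis thaliana, and their 8 genes were picked by locus identifier from the 32833 genes of a deposited count table. Reads had been counted in callus of the Col-0 wild type and of the wox5-1 wox7-1 double mutant, with 2 libraries per genotype and RNA from about 100 calli. Explants had been cut from the hypocotyls of seedlings germinated for 9 days in the dark, and both genotypes were then cultured in continuous light on callus induction medium with 11 µM 2,4-D, a synthetic auxin, and 0.2 µM kinetin, a cytokinin. The stage label gives 6 days on that medium and the protocol 5 to 6. The comparison asks how the wound-linked regulators stood in callus that carries mutations in the homeobox genes WOX5 and WOX7. The mutant is 1 combination of alleles. Separate cultures are not named for the 2 libraries of a genotype. Each p-value therefore reflects the spread between these libraries alone, and that spread may be technical.

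Cutting a plant organ switches on AP2/ERF genes within the wounded tissue. WIND1 and its relatives are known as factors of wound-induced dedifferentiation, and raised WIND activity lets callus form without added hormones. ERF115 is known to act with the GRAS protein PAT1 when cells next to a damaged root stem cell divide to replace it, ERF114 is its closest relative, and ERF109 links jasmonate and wounding to auxin synthesis in roots. RAP2.6 responds to wounding, jasmonate and other stresses. All of them bind DNA through the AP2 domain, which gives the family its name.

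The coding stretches of 60 bases that were most alike within each group are shown because they carry the part of the AP2 domain that the members share, and because they show how far reads of near relatives can be told apart. They were read 5′ to 3′ from the TAIR10.1 genome, and capitals mark bases that differ from the first gene of the group. The WIND stretches start at coding base 442 in WIND1, 235 in WIND2, 415 in WIND3 and 325 in WIND4.
WIND1: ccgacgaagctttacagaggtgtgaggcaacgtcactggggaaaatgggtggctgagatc
WIND2: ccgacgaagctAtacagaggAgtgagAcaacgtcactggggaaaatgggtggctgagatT
WIND3: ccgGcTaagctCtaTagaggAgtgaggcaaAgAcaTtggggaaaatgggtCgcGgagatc
WIND4: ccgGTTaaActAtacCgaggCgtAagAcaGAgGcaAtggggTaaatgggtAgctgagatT
WIND2 differed from WIND1 at 4 of these bases, WIND3 at 10 and WIND4 at 16. The group X stretches, with the related gene ERF113 (RAP2.6L) added, start at coding base 268 in ERF114, 274 in ERF115, 115 in ERF113, 406 in ERF109 and 181 in RAP2.6.
ERF114: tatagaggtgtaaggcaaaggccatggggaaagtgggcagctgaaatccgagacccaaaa
ERF115: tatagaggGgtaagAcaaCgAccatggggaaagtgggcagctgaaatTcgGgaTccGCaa
ERF113: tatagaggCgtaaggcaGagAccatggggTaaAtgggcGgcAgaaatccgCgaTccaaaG
ERF109: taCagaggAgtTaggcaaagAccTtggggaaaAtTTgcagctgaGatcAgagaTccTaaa
RAP2.6: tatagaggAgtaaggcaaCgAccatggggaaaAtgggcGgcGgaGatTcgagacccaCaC
ERF115 differed from ERF114 at 9 bases, ERF113 and RAP2.6 at 10 and ERF109 at 12. Over whole coding sequences, ERF114 and ERF115 were identical at 68.7% of aligned positions, the highest of the pairs compared, and WIND1 and WIND2 at 58.3%. The longest identical run between the transcripts of WIND1 and WIND2 was 46 bases, and between ERF114 and ERF115 it was 26 bases. No stretch of 50 bases in any of the 8 transcripts occurred a second time in the nuclear chromosomes, but no source used here gives the read length or the handling of shared reads.

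The WIND genes have 1 exon each. In TAIR10.1, chromosome 1 carries WIND1 (AT1G78080, plus strand, 29364072 to 29366207), WIND2 (AT1G22190, plus strand, 7835781 to 7837411) and WIND3 (AT1G36060, minus strand, 13454496 to 13456336), and chromosome 5 carries WIND4 (AT5G65130, plus strand, 26017185 to 26018349). ERF115 (AT5G07310, plus strand, 2305551 to 2306837) and ERF114 (AT5G61890, minus strand, 24852322 to 24853941) have 2 exons each and lie on chromosome 5. RAP2.6 (AT1G43160, plus strand, 16263805 to 16264945) has 2 exons on chromosome 1, and ERF109 (AT4G34410, plus strand, 16451876 to 16453260) has 1 exon on chromosome 4. ERF109 was the single member that overlapped other annotated genes, 2 of them, both on the opposite strand. Promoters were searched over 250 bases before each annotated start, on both strands, for 4 short motifs. GCCGCC is present in 1.87% of 27443 promoters of protein-coding genes, whereas CCGAC is present in 12.0%, TTAATGG in 6.99% and the palindrome CACGTG in 6.49%. The matches in the 8 member promoters were 1 of the last motif in ERF109 and 1 in RAP2.6.

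The libraries held 30041268 and 35975440 gene-assigned reads in the wild type, against 35078420 and 40008661 in the mutant. WOX5 read counts were almost lost in both mutant libraries (145 ± 1.22 against 0.551 ± 0.418 CPM, SD, n = 2 each), which matches the labels. WOX7 stood at 13.9 ± 1.19 and 22.3 ± 0.138 CPM, and whole-gene counts leave the wox7-1 allele unchecked. Founder cell and root stem cell markers (PLT1, PLT2, SCR, LBD16, LBD18 and LBD29) summed to 808 to 888 CPM in the wild type and 685 to 755 in the mutant. Of these 6, SCR (log2 fold change -0.73) and PLT2 (-0.36) fell and LBD18 (0.67) rose. LBD29 held 4 and 44 reads in the wild type libraries, against 6 and 130 in the mutant libraries. Of 3 leaf markers, LHCB1.1 had no read in 3 libraries and 3 reads in the other. RCA stood at 18.0 and 12.6 CPM in the wild type, against 20.0 and 12.3 CPM in the mutant. RBCS1A stood at 1.18 and 0.525 CPM in the wild type, against 3.25 and 0.641 CPM in the mutant. Summed markers of suberized cells (MYB92, GPAT5, ASFT) stood at 5.00 and 8.77 CPM in the wild type, against 138 and 166 CPM in the mutant, those of the root cap (SMB, BRN1, BRN2) at 7.99 and 10.7 against 86.4 and 101 CPM, and those of xylem vessels (VND7, XCP1, XCP2, IRX3) at 8.09 and 6.53 against 17.7 and 12.3 CPM. Single genes made up most of 2 of these sums in the mutant, MYB92 with 121 and 124 CPM and SMB with 85.8 and 89.4 CPM. GPAT5 and ASFT were also higher in both mutant libraries, at lower levels. BRN1 overlapped between the genotypes, at 0.230 and 5.95 CPM in the wild type against 0.509 and 11.6 CPM in the mutant. Past the threshold, 2 of 3 suberized cell markers, 1 of 2 tested root cap markers and 1 of 4 xylem markers were higher and none of these 3 lists held a lower one. The part of this shift in the results that follow was not tested. In bulk RNA, fewer cells of a type and less RNA per cell cannot be told apart.

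Of the 8 genes, 5 held enough reads to be tested. In the mutant WIND2 and WIND3 were lower, ERF114 was higher, and WIND1 and ERF115 did not pass the threshold (quasi-likelihood test of edgeR, with p adjusted by Benjamini-Hochberg over all genes tested and a threshold of 0.05). Of all 18716 genes tested, 11.9% passed in either direction, 6.06% higher and 5.81% lower, the background for edgeR calls in the gene lists below. An unadjusted edgeR p below 0.05 was found for 6247 of the 18716, the background for such counts in the gene lists below. The libraries of the genotypes did not overlap for 3 of the 5 members, against 64.4% of all tested genes. The members did not move as a group, with log2 fold changes (mutant over wild type) from -1.20 to 1.39 and a median of 0.15, beside a median of -0.0011 over all genes tested. Levels are CPM, gene counts scaled to library totals that were corrected by the trimmed mean of M values (TMM). Read against other settings, the share of all genes called was 11.5% with RLE scaling, 11.2% with upper-quartile scaling, 11.1% with no filter, 13.4% with a stricter filter, 20.7% by DESeq2, 9.07% by limma-voom, 10.4% on the deposited values and 25.4% with a replicate block. It was 0 without either wild type library, 13% without mutant replicate 1 and 6.28% without mutant replicate 2.

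**Figure D1:**
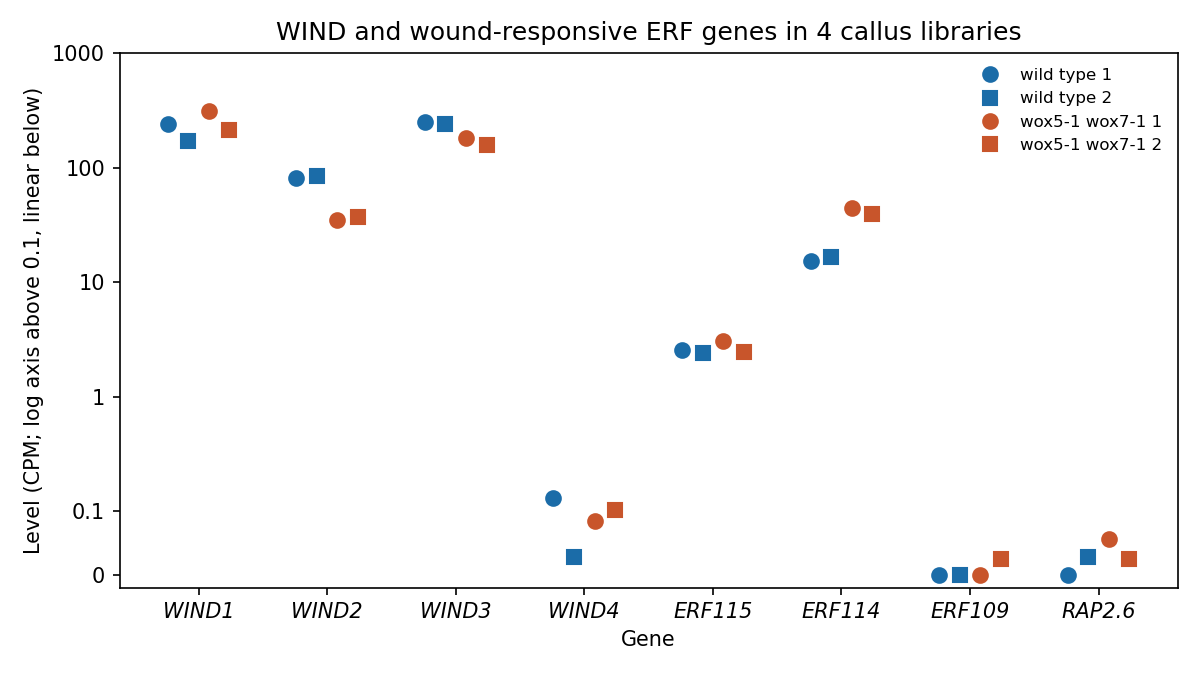
Level of each gene in CPM (vertical axis, logarithmic above 0.1 and linear below) in the 4 libraries, with circles for replicate 1 and squares for replicate 2 of the wild type (blue) and the wox5-1 wox7-1 mutant (orange). WIND2 and WIND3 lie lower in both mutant libraries, ERF114 lies higher, and WIND4, ERF109 and RAP2.6 lie at or near 0 in all 4.

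WIND2 was the member with the largest fall. Its wild type libraries stood at 81.6 and 83.5 CPM, its mutant libraries at 34.7 and 37.2 CPM. Both mutant libraries lay far below both wild type libraries, and the libraries of 1 genotype differed little. The level was 2.30-fold lower in the mutant (log2 fold change -1.20, SE 0.08, 95% interval -1.40 to -1.0, edgeR adjusted p = 0.0133). This change was larger in size than that of 89.9% of tested genes. Without wild type replicate 1 or replicate 2 the edgeR adjusted p was 0.123 or 0.117, while the log2 fold change was -1.21 or -1.19, and in these fits no gene of the whole table passed.

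WIND3, which Polycomb repression is known to keep silent in mature cells, had the highest level per transcript length among the members in the wild type. It stood at 248 and 240 CPM in the wild type, against 181 and 157 CPM in the mutant. The genotypes did not overlap, and the fall was smaller than that of WIND2 (1.44-fold lower, log2 fold change -0.53, SE 0.10, 95% interval -0.79 to -0.27, edgeR adjusted p = 0.0440). The call was close to the threshold. It was lost without mutant replicate 2 (-0.42, edgeR adjusted p = 0.0689) and without wild type replicate 1 or 2 (adjusted p = 0.243 and 0.234).

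WIND1, the best studied of the 4 and a direct activator of the shoot regeneration gene ESR1, stood at 240 and 172 CPM in the wild type, against 310 and 215 CPM in the mutant. The genotypes overlapped, since mutant replicate 2 lay between the wild type libraries, and within each genotype replicate 1 was the higher. The log2 fold change was 0.35 (SE 0.25, edgeR adjusted p = 0.380), with a wide 95% interval from -0.30 to 1.01. It lay between 0.06 (without mutant replicate 1) and 0.62 (without wild type replicate 1).

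WIND4 was close to absent. The wild type libraries held 4 reads and 1 read, the mutant libraries 3 and 4. The ratio of the totals, 7 reads over 5, was 1.25 after scaling, with an exact (Clopper-Pearson) 95% interval from 0.343 to 5.01, which covers counting error only. A WIND4 difference within that interval was not detectable at this depth.

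Levels between genes were compared as CPM per kb of transcript. In the wild type the order was WIND3 (133 ± 3.18), WIND1 (96.3 ± 22.4), WIND2 (50.6 ± 0.839), ERF114 (12.7 ± 0.756) and ERF115 (2.26 ± 0.102; SD, n = 2 each). WIND3 was above 96.6%, WIND1 above 94.7% and WIND2 above 87.9% of tested genes with a length, ERF114 was near the middle at 52.1%, and ERF115 was above 18.6%. In the mutant the order was WIND1 (123 ± 31.7), WIND3 (91.8 ± 9.51), ERF114 (33.4 ± 2.63), WIND2 (22.0 ± 1.08) and ERF115 (2.51 ± 0.416). WIND1 and WIND3 there differed by less than the SD of WIND1, whereas ERF114 lay above WIND2 in both mutant libraries and below it in both wild type libraries.

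The summed level and the makeup of the WIND transcripts were set side by side. WIND1 to WIND4 together stood at 297 and 262 CPM per kb in the wild type, against 265 and 208 in the mutant, and these ranges overlap. The share of WIND1 in that sum was 37.8% and 30.7% in the wild type, against 54.8% and 48.2% in the mutant. The share of WIND2 was 16.8% and 19.5% against 8.02% and 10.9%, and that of WIND3 45.4% and 49.7% against 37.1% and 40.8%. The ratio of WIND1 to WIND3 per kb was 0.832 and 0.618 in the wild type, against 1.48 and 1.18 in the mutant, so WIND3 led in both wild type libraries and WIND1 in both mutant libraries. The shares add up to the whole, so that of WIND1 also moves with the levels of WIND2 and WIND3. With 2 libraries against 2, an exact two-sided permutation test of such a share or ratio cannot give a p below 0.333, and it gave 0.333 for each of these 3 shares and for the ratio, and 0.667 for the sum.

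**Figure D2:**
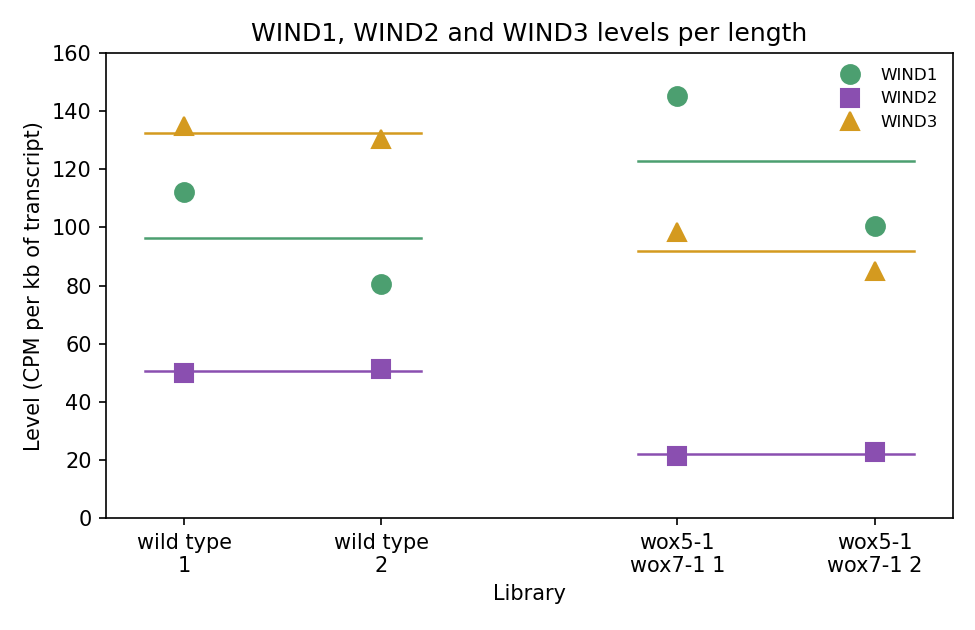
Level of WIND1 (circles), WIND2 (squares) and WIND3 (triangles) in CPM per kb of transcript in each library, with a line at each genotype's mean. WIND3 is highest in both wild type libraries (135 and 130), WIND1 is highest in both mutant libraries (145 and 100.5), and WIND2 drops from 50.04 and 51.2 to 21.3 and 22.8.

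Among the group X members, ERF114 rose. ERF114, also called EBE, is known to promote cell division and shoot bud growth when overexpressed. It stood at 15.4 and 16.7 CPM in the wild type, against 44.4 and 39.7 CPM in the mutant. Both mutant libraries lay above both wild type libraries, and the level was 2.62-fold higher (log2 fold change 1.39, SE 0.11, 95% interval 1.11 to 1.68, edgeR adjusted p = 0.0151). The change was larger in size than that of 91.9% of tested genes. Without wild type replicate 1 or 2 the call was lost (1.34 and 1.45, edgeR adjusted p = 0.124 and 0.117).

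ERF115, the close relative of ERF114, held few reads. It stood at 2.56 and 2.41 CPM in the wild type, against 3.08 and 2.44 CPM in the mutant, from 165 and 204 reads in all. The genotypes overlapped, and the log2 fold change was 0.15 (SE 0.27, 95% interval -0.56 to 0.87, edgeR adjusted p = 0.738). The ratio of ERF114 to ERF115 per kb was 5.23 and 6.07 in the wild type, against 12.6 and 14.2 in the mutant (exact two-sided permutation p = 0.333, the smallest possible).

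ERF109 and RAP2.6 were at or near 0. ERF109 had 0 reads in 3 libraries and 1 read in mutant replicate 2. RAP2.6 had 0 and 1 reads in wild type libraries against 2 and 1 in mutant libraries. Both genotypes were at or under a floor of 3 reads, which corresponds to 0.0770 to 0.0986 CPM in a library, so no fold change is given. Reads of ERF109 could not be told apart from those of its opposite-strand neighbours, since no source used here gives the strand setting.

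**Figure D3:**
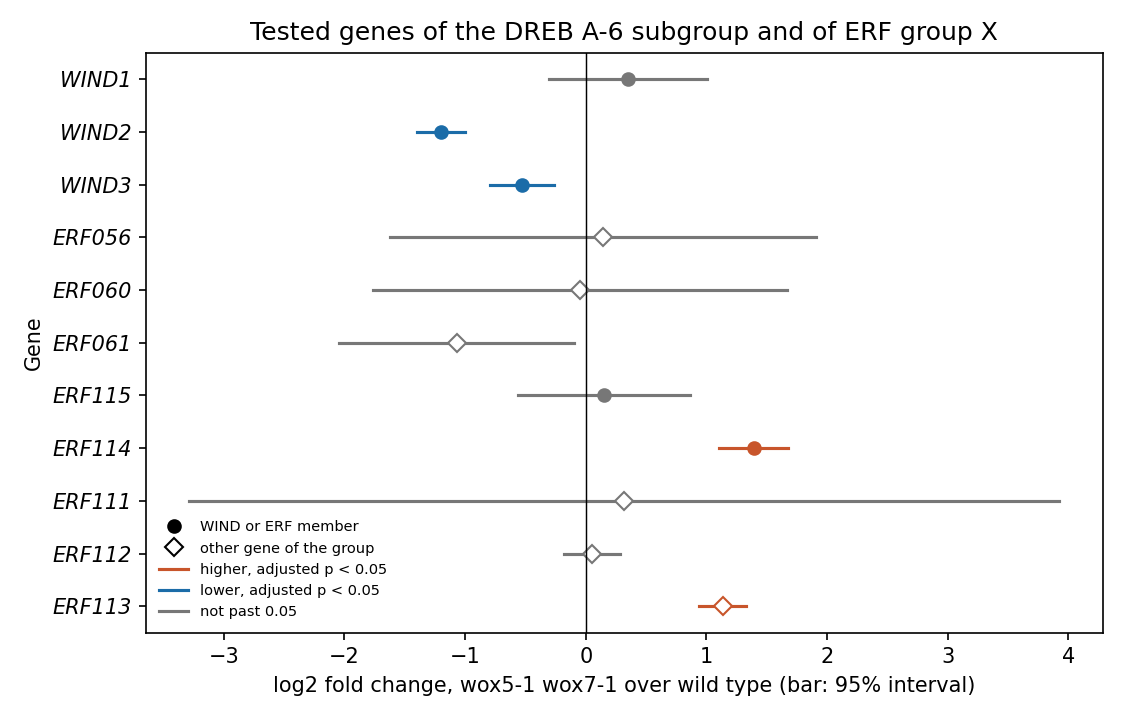
Log2 fold change of the mutant over the wild type with its 95% interval for the tested genes of the DREB A-6 subgroup (WIND1 to ERF061) and of ERF group X (ERF115 to ERF113), with filled circles for members and open diamonds for relatives. WIND2 (-1.20) and WIND3 (-0.53) lie left of 0, ERF114 (1.39) and ERF113 (1.14) lie right of 0, and the intervals of WIND1 and ERF115 include 0.

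The WIND genes belong to the DREB A-6 subgroup, and the ERF members to ERF group X. Of the other 6 A-6 genes, 3 were tested and none passed by edgeR, DESeq2 or limma-voom, with 1 at an unadjusted edgeR p below 0.05. ERF061 had 2.17 and 1.88 CPM in the wild type, against 1.16 and 0.770 CPM in the mutant, a log2 difference of -1.07 (SE 0.37, edgeR adjusted p = 0.126). Of the other 4 group X genes, 3 were tested and 1 rose. That gene was ERF113, known as RAP2.6L from the rejoining of cut stems and from shoot regeneration, with 57.9 and 62.3 CPM in the wild type, against 132 and 132 CPM in the mutant, a log2 rise of 1.14 (SE 0.07, edgeR adjusted p = 0.0135). ERF113 lost its call, as ERF114 did, without wild type replicate 1 or 2 (edgeR adjusted p = 0.124 and 0.117). Chosen after their values were seen, ERF112 was flat at 21.0, 21.4, 21.8 and 22.1 CPM over the 4 libraries, while ERF111 (ABR1) stood at 0.625 and 6.94 CPM in the wild type, against 1.104 and 8.36 in the mutant. ERF111 therefore differed between the libraries of each genotype far more than between the genotypes, and replicate 2 was the higher in both genotypes.

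Across the family, the annotation text placed 118 genes in a DREB or ERF subfamily. Of these, 70 were tested, 4 rose and 3 fell, or 10% called beside 11.9% of all tested genes. WIND2 is not among the 118, since its annotation text words its family otherwise, and the text puts ERF109 in subfamily B-3 and the other ERF members in B-4. Of 15 genes of ERF group IX, which answer to ethylene, jasmonate and stress, 9 were tested and none passed by edgeR or limma-voom, with 1 at an unadjusted edgeR p below 0.05 and 1, ERF6, called by DESeq2. Their median log2 fold change was 0.41. ERF6 had the smallest p, with 10.9 and 7.05 CPM in the wild type, against 17.6 and 33.2 CPM in the mutant, a log2 difference of 1.502 (SE 0.39, edgeR adjusted p = 0.0756).

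PAT1, the GRAS partner of ERF115, fell. It stood at 76.3 and 70.1 CPM in the wild type, against 54.4 and 51.6 CPM in the mutant, a log2 change of -0.47 (SE 0.08, edgeR adjusted p = 0.0387). The genotypes did not overlap. The other 4 tested genes of the PAT1 branch had positive fold changes and none passed by edgeR, with 1, SCL1, at an unadjusted p below 0.05 and called by DESeq2. The median of all 5 was 0.16. The PAT1 call was lost without wild type replicate 1 (adjusted p = 0.246), wild type replicate 2 (0.196) or mutant replicate 2 (0.0993).

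Phytosulfokine is a secreted peptide that promotes cell division, and ERF115 is known to activate the precursor gene PSK5 in roots. Of 7 precursor and receptor genes, 6 were tested, 1 fell, none rose, and the median was -0.49. At an unadjusted edgeR p below 0.05 there were 3, beside 6247 of all 18716 genes tested. DESeq2 called 2, PSK1 and PSK4 (PSK4 log2 fold change -0.66, edgeR adjusted p = 0.102), beside 20.7% of all genes in its fit. PSK1 fell from 10.8 and 13.0 CPM in the wild type to 3.00 and 4.05 CPM in the mutant, 3.37-fold lower (log2 -1.75, SE 0.23, edgeR adjusted p = 0.0248). PSK5, chosen after its value was seen for its link to ERF115, had 1.25 and 1.71 CPM in the wild type, against 0.821 and 0.795 CPM in the mutant (-0.87, SE 0.36, adjusted p = 0.177). Without wild type replicate 1 or 2 the PSK1 call was lost, at log2 fold changes between -1.98 and -1.56 over all fits that leave out a library.

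Of 6 reported targets of WIND1, ERF115 and ERF109, 3 were tested and none passed by edgeR or limma-voom, with 1 at an unadjusted edgeR p below 0.05 and 1, ASA1, called by DESeq2. ASA1, which encodes a tryptophan synthesis enzyme and is a target of ERF109, had 48.1 and 47.5 CPM in the wild type, against 70.6 and 117 CPM in the mutant, a log2 difference of 0.97 (SE 0.25, edgeR adjusted p = 0.0761). ESR1, the target of WIND1, held 0 and 3 reads in wild type libraries against 0 and 2 in mutant libraries, at or under the floor. Of the Polycomb genes, all 7 were tested, none passed by edgeR, DESeq2 or limma-voom, 1 had an unadjusted edgeR p below 0.05, and the median was -0.05. VRN2 had the smallest p, with 44.2 and 46.7 CPM against 51.3 and 55.7 CPM (0.24, SE 0.08, adjusted p = 0.131).

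Of 13 early wound and stress regulators, 1 rose, none fell and the median was -0.12. At an unadjusted edgeR p below 0.05 there were 4, beside 6247 of all 18716 genes tested. Limma-voom called 0, beside 9.07% of all genes in its fit. DESeq2 called 4 (RBOHD, MYB51, WRKY18 and WRKY33), each with a positive fold change, beside 20.7% of all genes in its fit. RBOHD, which encodes an NADPH oxidase of the reactive oxygen burst, stood at 70.1 and 79.6 CPM in the wild type, against 109 and 134 CPM in the mutant, a log2 rise of 0.70 (SE 0.13, edgeR adjusted p = 0.0454). Its call was lost with limma-voom (0.0510), without wild type replicate 1 (0.229) or 2 (0.194) and without mutant replicate 2 (0.0713). Several members of this list differed widely between libraries of 1 genotype. Chosen after its values were seen, the zinc finger gene ZAT12 had 9.04 and 47.3 CPM in the wild type, against 8.41 and 30.04 CPM in the mutant, and WRKY33 had 17.0 and 19.5 against 33.8 and 97.3 CPM (1.84, SE 0.52, edgeR adjusted p = 0.0902).

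Of 16 ethylene synthesis and signalling genes, 2 rose and 1 fell, with a median of 0.19. At an unadjusted edgeR p below 0.05 there were 11, beside 6247 of all 18716 genes tested. DESeq2 called 9, beside 20.7% of all genes in its fit. The genes that rose encode enzymes of ethylene synthesis. ACO4, an ACC oxidase gene, rose from 13.5 and 12.4 CPM to 37.0 and 49.1 CPM (log2 rise of 1.74, SE 0.17, edgeR adjusted p = 0.0183), and ACS2, an ACC synthase gene, from 6.51 and 8.24 to 14.1 and 16.2 CPM (1.04, SE 0.18, adjusted p = 0.0376). The receptor gene ERS2 fell from 49.2 and 48.4 to 35.3 and 37.5 CPM (-0.42, SE 0.08, edgeR adjusted p = 0.0425). The ACO4 call was lost without either wild type library, the ACS2 call also without mutant replicate 2 (0.0863), and the ERS2 call without any 1 of the 4 libraries (0.0639 to 0.266) and with the constant of 10 kept in the counts (0.0707).

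**Figure D4:**
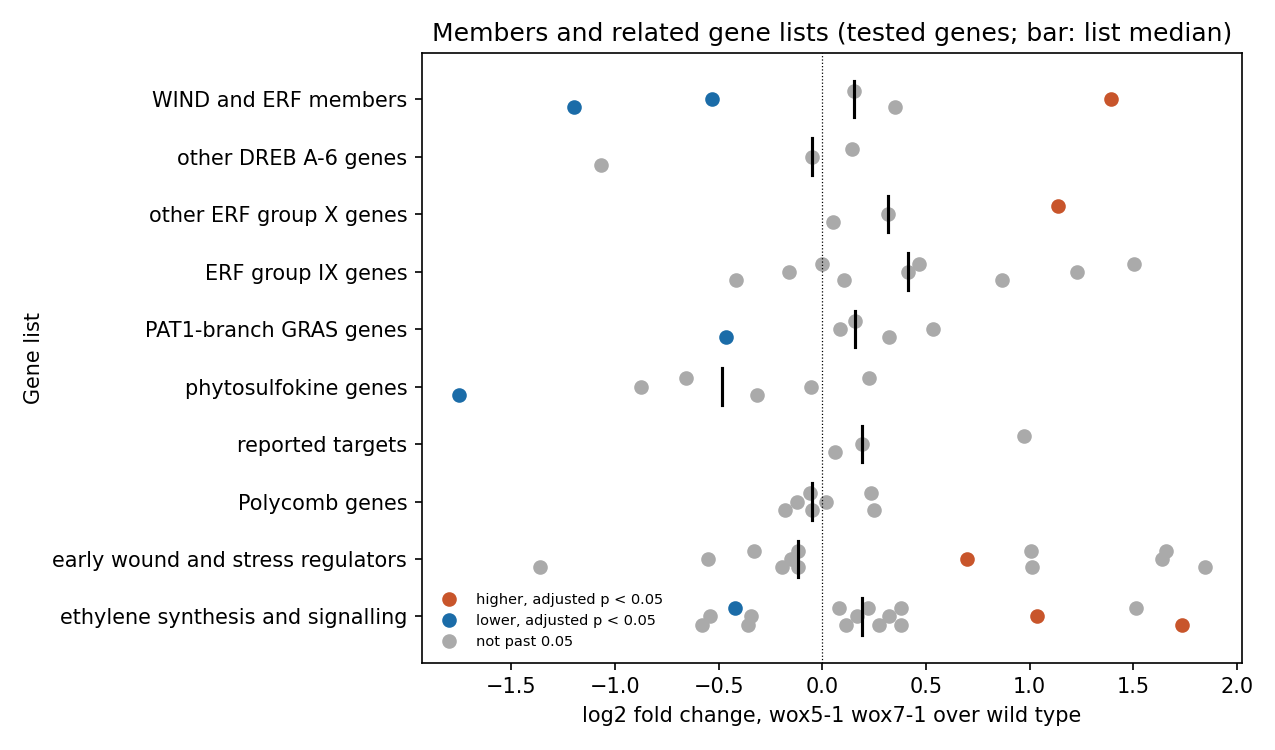
Log2 fold change of the mutant over the wild type for each tested gene of the members and of 9 related gene lists, with a bar at each list's median and colour for genes past the threshold (orange higher, blue lower). The members spread from -1.20 to 1.39, and the Polycomb genes lie closest together, from -0.18 to 0.25.

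The genes with a symbol whose profile over the 4 libraries was nearest to a called member were found by the root mean square difference of centred log2 CPM. For WIND2 they were ICR1 (0.041), ABCA7 (0.044) and PAP10 (0.044), with mutant over wild type log2 fold changes of -1.28, -1.16 and -1.13. For WIND3 they were PDC2 (0.0051), SUVR2 (0.016) and AHG11 (0.019). For ERF114 they were GBF6 (0.040), SUMM2 (0.069) and AFP3 (0.069). With 4 libraries such a profile is little more than the fold change itself, and 8058 genes were compared.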

How the data were processed

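RNA-seq read counts per gene came from 4 libraries, 2 per genotype, grouped by their titles. The deposited values are whole-number counts that the authors made, and the lowest value in the table is 10. The submitters' processing notes name the tools STAR 2.7.2b, Trim Galore 0.5.0 and DESeq2 as well as the build TAIR10, without roles. No source used here gives the counting tool or the strand setting. A constant of 10 was subtracted from every count, an inference from the values. Names and coordinates came from the TAIR10.1 RefSeq annotation (32548 identifiers matched).

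Genes were kept by filterByExpr in edgeR 4.0.16 (R 4.3.3), scaled by TMM, and the genotypes compared by glmQLFit and glmQLFTest, two-sided, without covariates, with Benjamini-Hochberg adjustment over 18716 genes and a threshold of 0.05. SE is the absolute log2 fold change over the square root of F, and intervals are at 95%. The fits were tested on simulated data with larger changes than those of the members and less spread between libraries than in these data. That run does not bear on the calls of the members, least of all on small changes such as that of WIND3. The settings tried beside these were scaling by RLE or by the upper quartile, no filter, CPM of at least 1 in 2 libraries, DESeq2 1.42.0 (all genes, its default filtering), limma-voom (limma 3.58.1), the deposited counts with the constant, the replicate number as a block, and each library left out. The members, lists and tests were chosen with earlier results of these data known. Named genes were all members, WOX5 and WOX7, up to 4 called genes per list or else the one with the smallest p, and 3 nearest profiles per called member. The locus first noted for the marker MYB92 was that of another gene and was corrected. Protein identity was replaced by identity of coding sequences.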

Additional observations from a re-analysis of the deposited data

How the results depend on the processing

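The member count of 3 calls (WIND2, WIND3 and ERF114) held in the alternatives that keep all 4 libraries, except that the replicate number as a block added WIND1 (0.35, SE 0.07, edgeR adjusted p = 0.0267) for a count of 4. Deviations of same-numbered libraries from their genotype means correlated at 0.555 across genes. The labels give these libraries the same number but name no shared source, and with 2 pairs what the number stands for was not tested. The block moved the calls over all genes from 2223 to 4750 and over the 79 listed genes from 7 to 19. DESeq2 gave 3936 and 20, and the deposited values gave 3416 and 16, with 66.9% of the 3416 higher beside 51.1% in the reported fit. That fit of the deposited values covered 32833 genes. Among all the fits, 1 needed another dispersion trend, and which one was not recorded. With 1 library left out, edgeR called 0 to 3 members, 0 to 2493 genes and 0 to 20 listed genes. The counts of 0 came from leaving out wild type replicate 1 or 2, where 3428 and 3346 genes and 3 members had an unadjusted p below 0.05. Such a fit assumes that the lone library varies like those of the other genotype, and a call lost there is no evidence of no change. ERF115 changed sign without mutant replicate 1, with log2 fold changes from -0.030 to 0.32 over the fits that leave out a library (adjusted p from 0.570 to 0.959). The cause was not tested. No other member changed sign. Depth limits what can be said of WIND4, ERF109 and RAP2.6.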
